A study of Mus musculus with 5 samples.

Results

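The genes described here are 8 immunoglobulin superfamily adhesion molecules that take part in the growth and sorting of olfactory axons: *Kirrel2*, *Kirrel3*, *Cntn4*, *Ncam1*, *Ncam2*, *L1cam*, *Nrcam* and *Chl1*. They were picked by symbol out of the 55411 genes of the count tables, and their change after odorant exposure was compared in 1 population of mouse olfactory sensory neurons (OSNs). This population transcribes the odorant receptor gene *Olfr151* (*M71*), whose product responds to acetophenone. The mice were homozygous for *Olfr151* tm26Mom, a knockin allele in which an IRES-tau-GFP reporter follows the receptor at its own locus. Control and exposed mice alike carried this allele and were 7 weeks old males. They were single-housed with a swab of DMSO alone (control) or of 5% acetophenone in DMSO (exposed) for 5 h. Live GFP-positive cells were sorted, and 1 library was made from each pool of 4 mice, with 3 control pools and 2 exposed pools, numbered 1 and 3. Exposed pool 2 was not analysed here. Sorted cells were 200 per pool by the sample characteristics and the study's methods, and 400 by the extraction text.

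Each OSN transcribes a single receptor gene, and axons of neurons with the same receptor converge on the same glomeruli of the olfactory bulb. *Kirrel2* and *Kirrel3* encode homophilic adhesion molecules whose levels vary between OSN populations, and they are known to follow neuronal activity in opposite directions. Contactins and NCAMs are cell surface proteins of axons, the former held in the membrane by a lipid anchor. L1CAM, NrCAM and CHL1 are transmembrane proteins of the L1 family that bind the ankyrin scaffold under the membrane.

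Reads were 50 bases long, and paralogs of 1 family are distinguishable only where they differ within such a stretch. The sequences below are shown because they hold the longest run that the coding sequences of *Kirrel2* and *Kirrel3* have in common, 15 bases, printed in capitals. They come from the GENCODE M21 transcripts of GRCm38 and lie in coding exon 3 of both genes, at chr7:30455489-30455548 on the minus strand for *Kirrel2* and at chr9:34944436-34944495 on the plus strand for *Kirrel3*.
Kirrel2: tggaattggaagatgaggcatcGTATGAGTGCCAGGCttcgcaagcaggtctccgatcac
Kirrel3: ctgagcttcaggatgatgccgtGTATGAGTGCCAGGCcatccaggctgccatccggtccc
Of the 60 positions in these windows, 38 were identical. No stretch of 50 bases in any transcript of *Kirrel2* (4083 stretches), *Kirrel3* (6637) or *Cntn4* (8670) occurred in the transcripts of another gene. For *Ncam1*, 269 of 8787 stretches (3.06%) were also found elsewhere, and for *L1cam* 92 of 7530 (1.22%). No such stretch was shared between any of the 8 genes. Reads were counted without regard to strand, and 417 exon bases of *Ncam1* (4.81%) overlap the gene *Gm11149* on the opposite strand.

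The libraries held 42780403 to 49527380 counts, of which spike-in RNAs took 0.249% to 0.631%. *Olfr151* held 62.2%, 82.9% and 73.1% of the counts of all receptor genes in the control pools and 57.8% and 44.2% in the exposed pools. The other receptor genes took 0.195%, 0.0626% and 0.136% of all counts in the control pools and 0.173% and 0.288% in the exposed pools. The defining marker of mature OSNs, *Omp*, was at 517814 counts or more in every library, and markers of basal and precursor cells summed to at most 8.47 CPM, the counts scaled to library size. CPM values here are scaled by edgeR's TMM factors. The 10 mature OSN markers summed to 61002 to 65841 CPM in control and to 52117 to 53188 CPM in exposed pools, ranges that did not overlap. Of these 10, 4 were called lower, beside 1.85% of all genes tested. The 2 dorsal zone markers, *Nqo1* and *Acsm4*, summed to 3652 to 4047 CPM in control and 2475 to 2739 CPM in exposed pools. The 6 immature OSN markers other than *Ncam1* summed to 910 to 1071 CPM and to 977 to 1270 CPM, and *Gap43* among them was called higher (log2 fold change 0.94, adjusted p = 0.0890, edgeR's quasi-likelihood test). Of the other immature markers none was called. With *Ncam1* included, 5 of the 7 immature markers had positive log2 fold changes. *Dpysl3* was at 35.2 to 66.2 CPM in control and at 106 and 168 CPM in exposed pools. *Gng8* was at 6.58 to 16.8 CPM and at 23.5 and 25.2 CPM. Both were higher in the exposed pools, at log2 fold changes of 1.31 and 1.13. *Crmp1* (147 to 163 CPM in control, 106 to 111 CPM in exposed pools) and *Tubb3* (160 to 233 CPM and 112 to 137 CPM) were lower in both exposed pools, at log2 fold changes of -0.54 and -0.60. Markers of sustentacular cells (125 to 274 CPM in control, 144 to 366 CPM in exposed pools) overlapped between conditions, as did those of myeloid cells (13.0 to 121 CPM and 46.4 to 124 CPM). Of the 7 myeloid markers 3 were tested, all with positive log2 fold changes (median 1.98) and 0 called. Among them *Ptprc* was at 0 to 1.09 CPM in control and at 12.4 and 12.6 CPM in exposed pools. *Tyrobp* was at 1.45 to 12.4 CPM and at 19.1 and 23.9 CPM. Both reached the minimum of 142 counts for testing through the exposed pools only, which favours a positive sign. *Lyz2*, the other tested marker, reached it in both conditions and had a log2 fold change of 0.26. The 6 ensheathing glia markers summed to 0.605 to 4.68 CPM in control and 1.32 to 3.73 CPM in exposed pools, with *Frzb* and *Npy* at 0 in every library. The part of any of these lists in the results below was not tested. In pooled cells, a change in the number of cells that transcribe a gene and a change in RNA per cell cannot be told apart.

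In the control pools, 5 of the 8 genes were at 63.5 TPM or more in every pool and the other 3 at 2.08 TPM or less. The part of OSNs with other receptors in these levels was not tested. Levels between genes are compared per exon length, in TPM, counts scaled to exon length and to the library. *Kirrel2* was the highest, at 834, 846 and 1022 TPM in control pools 1, 2 and 3, a mean of 901 ± 105 (SD, n = 3), which is rank 114 of the 10036 genes tested. *Ncam1* followed with 583 ± 79.8 TPM (SD, n = 3) and *Cntn4* with 556 ± 89.7 TPM (SD, n = 3). The ranges of the latter pair overlapped, 494 to 648 TPM and 484 to 656 TPM, so that their order could not be told. *Kirrel3* stood below them at 131, 143 and 150 TPM, and *L1cam* below *Kirrel3* at 63.5 to 101 TPM. *Ncam2*, a cell adhesion molecule of ventral zone OSNs, was at 1.22 to 2.02 TPM. *Nrcam* was at 0.0990 to 2.08 TPM, a range that contained that of *Ncam2*. *Chl1* had 0 counts in all 5 libraries, which allows up to 3 counts, or 0.0606 to 0.0701 CPM, by counting error alone.

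**Figure D1:**
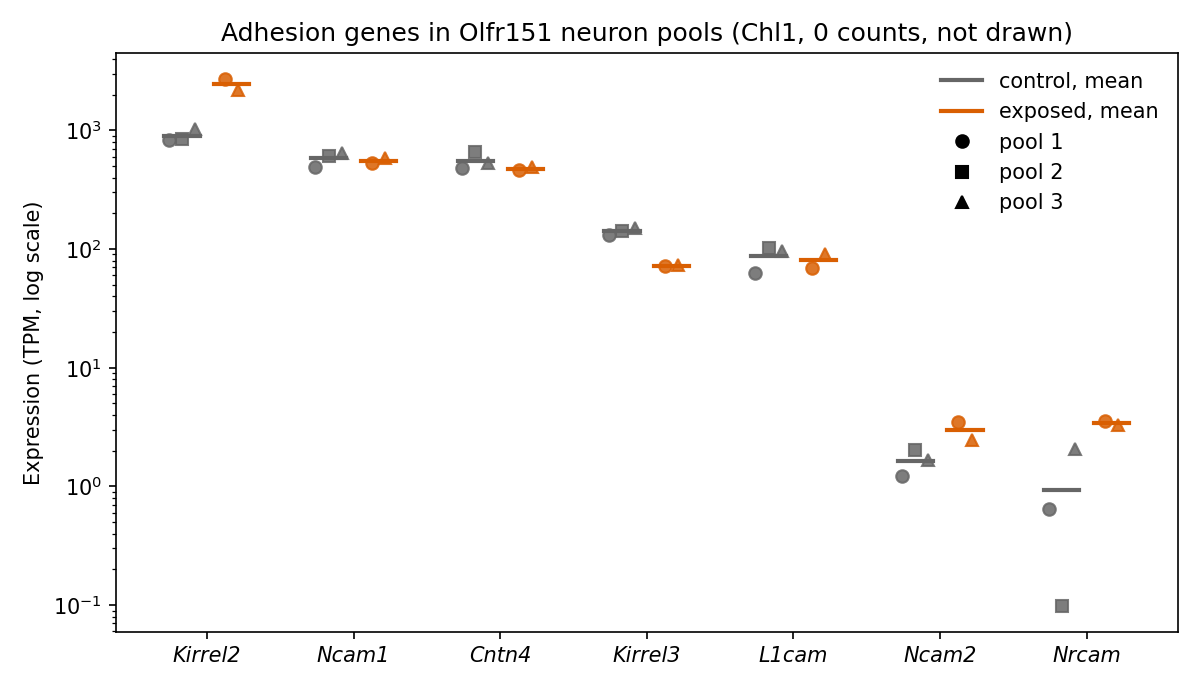
Expression of the 7 detected adhesion genes in TPM (log axis) in 3 control pools (grey) and 2 exposed pools (orange), with a symbol for each pool number and a bar at each mean. *Kirrel2* lies at 834 to 1022 TPM in control and at 2189 and 2694 TPM in exposed pools, while *Kirrel3* lies at 131 to 150 TPM in control and at 71.9 and 72.8 TPM in exposed pools.

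To ask whether these genes change when their neurons are stimulated by an agonist, exposed pools were compared with control pools over the genes that reached 142 counts in all libraries of 1 condition or more. A gene was called higher or lower where the adjusted p-value was below 0.1 and the log2 fold change exceeded 0.5 in size. Of the 8 genes, 7 were tested. *Kirrel2* was called higher, in a table where 3.42% of the tested genes were called higher. *Kirrel3* was called lower, where 1.85% were. The other 5 tested genes were not called. *Nrcam* reached the count minimum through the exposed pools only, and a gene that enters in this way is bound to differ.

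*Kirrel2* (ENSMUSG00000036915) lies on chromosome 7 from 30447534 to 30457690, on the minus strand, with 3939 exon bases. Control pools 1, 2 and 3 held 44387, 45370 and 53671 counts, and exposed pools 1 and 3 held 153132 and 114267. Both exposed pools were far above every control pool. Scaled to library size, the control level of 1033 ± 122 CPM (SD, n = 3) stood against 3152 ± 591 CPM (SD, n = 2) after exposure. This is a log2 fold change of 1.61 (SE 0.16, 95% interval 1.23 to 1.99, adjusted p = 0.00557, edgeR's quasi-likelihood test), which corresponds to 3.05-fold. By fold change *Kirrel2* stood in the middle of the genes called higher, at place 147 of 343. Its gain in CPM, 2119, was the 7th of the 10036 genes tested. In TPM, the exposed pools were at 2694 and 2189, and the gene moved from rank 114 to rank 29. The log2 fold change was 1.40 without exposed pool 1 and 1.79 without exposed pool 3. Each of these fits has 1 exposed library, which is assumed to vary like the control pools, so that their calls are no check on the spread among exposed pools. *Kirrel2* was not called under scaling to the spike-in RNAs (1.36, adjusted p = 0.826) or with the pool number as a block (1.52, adjusted p = 0.155), and its adjusted p ranged from 2.07e-14 to 0.826 over 12 alternatives of edgeR's or DESeq2's test.

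*Kirrel3* (ENSMUSG00000032036) lies on chromosome 9 from 34485894 to 35036716, on the plus strand, with 6454 exon bases. The control pools held 11419, 12574 and 12918 counts, and the exposed pools 6695 and 6224. Every exposed pool was below every control pool. The pools of each condition lay close together, at 265 ± 12.7 CPM (SD, n = 3) without and 152 ± 5.08 CPM (SD, n = 2) with acetophenone. On the log2 scale the change was -0.80 (SE 0.14, 95% interval -1.14 to -0.46, adjusted p = 0.0375, edgeR's quasi-likelihood test). Control levels were 1.74-fold those of exposed pools. By fold change this was a modest decrease, place 157 of the 186 genes called lower. The call was lost without control pool 2 (adjusted p = 0.104), without exposed pool 1 (0.239) and without exposed pool 3 (0.162), at log2 fold changes of -0.83, -0.83 and -0.77. The fits without an exposed pool take the spread of the 1 exposed library left from the control pools. It was lost as well under scaling to the spike-in RNAs (0.9996), in the test against a log2 fold change of 0.5 (0.241) and with the pool number as a block (0.206), in a range of 6.97e-06 to 0.9996 over 12 alternatives.

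**Figure D2:**
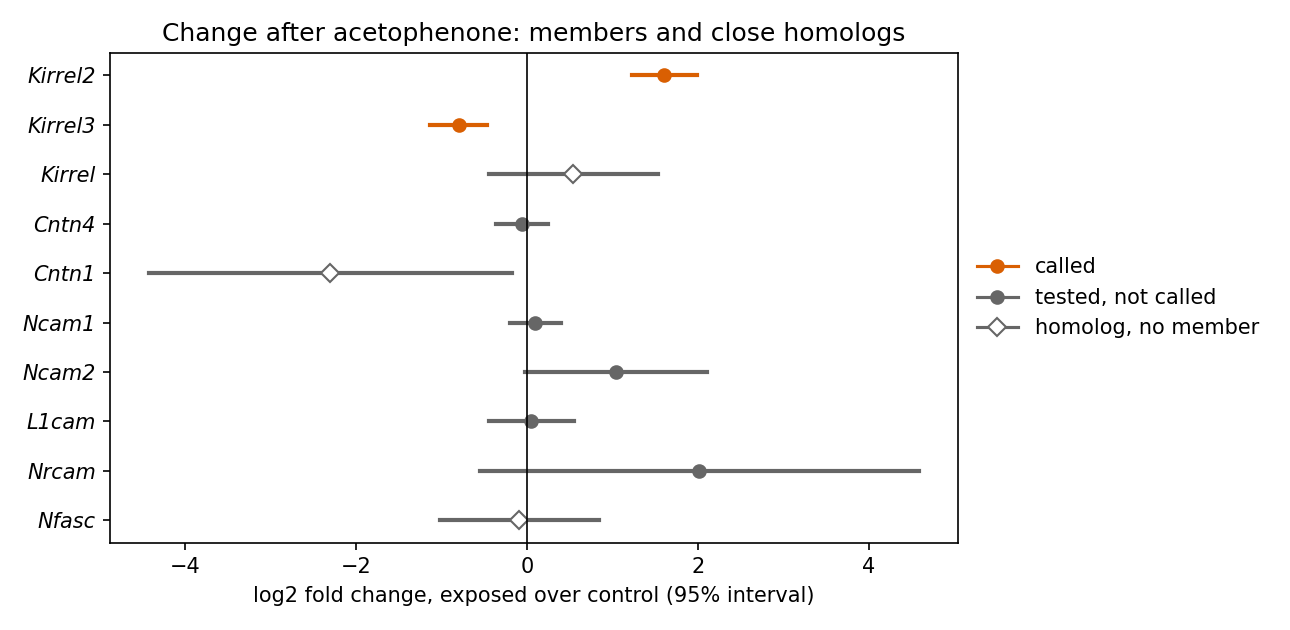
Log2 fold change of exposed over control pools with its 95% interval for the 7 tested adhesion genes (circles) and 3 close homologs (open diamonds). *Kirrel2*, at 1.61, and *Kirrel3*, at -0.80, are the 2 called genes (orange), and the intervals of *Ncam2* and *Nrcam* are wide.

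**Figure D3:**
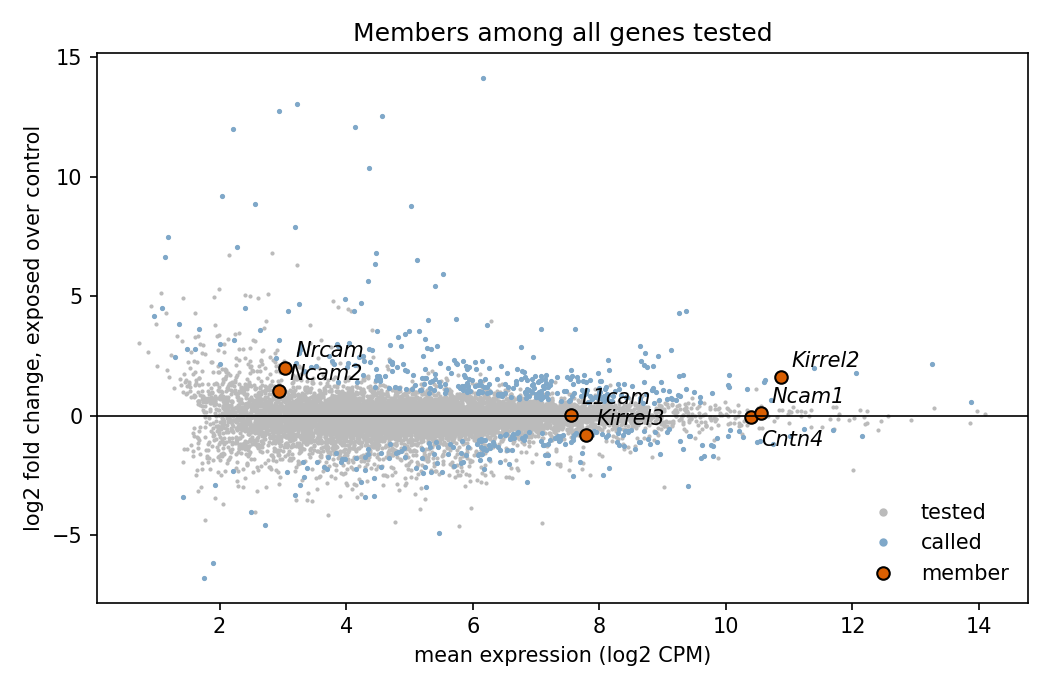
Log2 fold change against mean expression in log2 CPM for the 10036 genes tested, with called genes in blue and the adhesion genes in orange. *Kirrel2*, *Ncam1* and *Cntn4* lie at the high end of expression, and *Kirrel2* alone of the 3 stands off the line at 0.

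The 2 Kirrel genes were also compared within each library, where scaling between libraries has no effect. Per exon base, *Kirrel2* exceeded *Kirrel3* by 6.37-, 5.91- and 6.81-fold in control pools 1, 2 and 3, and by 37.5- and 30.1-fold in exposed pools 1 and 3. The ratios of the conditions were far apart, with little spread inside each. On the log2 scale the ratio averaged 2.67 ± 0.10 (SD, n = 3) across control pools and 5.07 ± 0.22 (SD, n = 2) after exposure. The difference was 2.40, or 5.29-fold. The two-sided exact permutation test over the 10 arrangements of the 5 libraries gave p = 0.1, the smallest that this design allows. Each gene alone already separated the conditions, in opposite directions, so the ratio was bound to separate them too. This p-value therefore adds no support to the 2 calls. With any single library left out the difference stayed between 2.24 and 2.56. Of the TPM summed over the 8 genes, *Kirrel2* made up 39.7% ± 3.32 (SD, n = 3) without exposure and 67.1% ± 4.59 (SD, n = 2) with it. *Kirrel3* made up 6.25% ± 0.24 and 2.00% ± 0.17. After exposure the level of *Kirrel3*, 71.9 and 72.8 TPM, lay within the range of *L1cam*, 68.6 to 91.6 TPM, whereas in control pools it was above it.

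**Figure D4:**
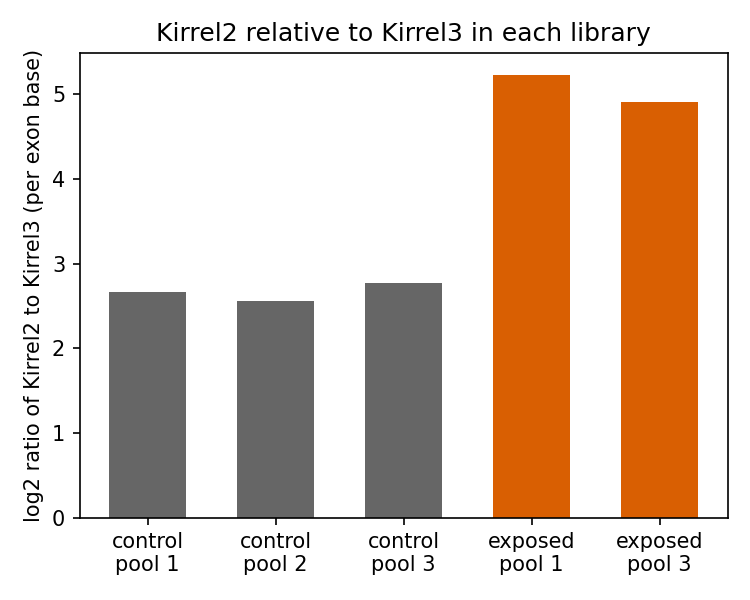
Log2 ratio of *Kirrel2* to *Kirrel3* per exon base in each of the 5 libraries, as bars from 0. The 3 control pools (grey) lie between 2.56 and 2.77, and the 2 exposed pools (orange) are at 5.23 and 4.91.

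The other gene of the family, *Kirrel*, which encodes a homolog with wide expression outside the nervous system, had 1716, 1605 and 3908 counts in control and 3167 and 3267 in exposed pools. Control pool 3 was above both exposed pools, while the other control pools were below them. Its log2 fold change was 0.54 (SE 0.42, adjusted p = 0.524, edgeR's quasi-likelihood test). This exceeded 0.5, but the adjusted p was not below 0.1, so that the gene was not called. The log2 ratio of *Kirrel2* to *Kirrel* averaged 5.35 ± 0.57 (SD, n = 3) without exposure and 6.28 ± 0.33 (SD, n = 2) with it, a difference of 0.93 (exact permutation test, p = 0.2). The related nephrin gene, *Nphs1*, a slit diaphragm component of the kidney that binds Kirrel proteins there, had 16 to 141 counts and was not tested. Of the 3 Kirrel genes, all tested, 1 was called higher and 1 lower, both of them already described.

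*Cntn4* (ENSMUSG00000064293), a contactin found on subsets of OSN axons, lies on chromosome 6 from 105677660 to 106699310, on the plus strand, with 8486 exon bases. It had 55442, 75774 and 59600 counts in control and 56397 and 54958 in exposed pools. In CPM the exposed pools were both at 1315 and fell inside the control range, 1275 to 1534. The log2 fold change was -0.055 (SE 0.13, adjusted p = 0.856, edgeR's quasi-likelihood test), with a 95% interval from -0.36 to 0.25, and its sign turned under 2 alternatives. The estimate for *Kirrel2* lay outside this interval.

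Of the other contactins, *Cntn1* had 303, 497 and 200 counts in control and 17 and 104 in exposed pools. Every exposed pool was lower, at a log2 fold change of -2.30 (SE 0.90), yet the adjusted p was 0.230 (edgeR's quasi-likelihood test), so that the gene was not called. *Cntn3*, *Cntn5* and *Cntn6* were at most at 4, 1 and 7 counts in any library. *Cntn2* had 48, 334 and 303 counts in control and 45 and 1100 in exposed pools, differed widely within each condition and did not reach the count minimum. Of the 13 contactins and contactin-associated proteins, 3 were tested and 0 were called. The median log2 fold change of those 3 was -0.055, beside -0.026 over all genes tested.

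*Ncam1* (ENSMUSG00000039542), which encodes a homophilic adhesion molecule present on OSN axons in general, lies on chromosome 9 from 49502136 to 49798925, on the minus strand, with 8664 exon bases. It had 57756, 71566 and 74788 counts in control and 66094 and 66706 in exposed pools, with both exposed pools inside the control range. Control pools averaged 1465 ± 145 CPM (SD, n = 3) and exposed pools 1568 ± 38.9 CPM (SD, n = 2). Its log2 fold change was 0.099 (SE 0.13, 95% interval -0.20 to 0.40, adjusted p = 0.715, edgeR's quasi-likelihood test). It turned to -0.13 with spike-in scaling.

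*Ncam2* (ENSMUSG00000022762), whose product is also known as OCAM and marks axons from the ventral zones, lies on chromosome 16 from 81200697 to 81626828, on the plus strand, with 11330 exon bases. It had 187, 312 and 251 counts in control and 570 and 366 in exposed pools. Both exposed pools were above every control pool, at 13.3 and 8.76 CPM against 4.30 to 6.32 CPM. The log2 fold change of 1.04 had an SE of 0.45 and an interval of -0.021 to 2.11, and it was not called (adjusted p = 0.270, edgeR's quasi-likelihood test). *Nfix*, a second marker of the ventral zones, was at 4.74 to 11.0 CPM in control and 6.05 to 6.34 CPM in exposed pools. Relative to *Ncam2* in the same library, *Ncam1* was 299- to 403-fold higher per exon base in control pools and 152- and 238-fold higher in exposed pools. This log2 ratio differed by -0.93 (exact permutation test, p = 0.1, the smallest possible).

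*L1cam* (ENSMUSG00000031391) lies on chromosome X from 73853778 to 73896105, on the minus strand, with 7347 exon bases, of which 100 (1.36%) also belong to *Arhgap4*. It had 6297, 10147 and 9430 counts in control and 7276 and 8923 in exposed pools. At 185 ± 34.6 CPM (SD, n = 3) and 192 ± 31.0 CPM (SD, n = 2), the conditions overlapped. The log2 fold change was 0.053 (SE 0.21, 95% interval -0.45 to 0.55, adjusted p = 0.925, edgeR's quasi-likelihood test). Its sign turned under 3 alternatives, spike-in scaling among them.

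*Nrcam* (ENSMUSG00000020598) lies on chromosome 12 from 44328885 to 44601964, on the plus strand, with 13358 exon bases. The counts were 116, 18 and 371 in control and 681 and 586 in exposed pools. Both exposed pools were above all control pools, which differed among themselves by more than any other gene of the 8 with counts. The log2 fold change of 2.02 carried an SE of 1.06 and an interval of -0.55 to 4.59, and the gene was not called (adjusted p = 0.359, edgeR's quasi-likelihood test).

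*Chl1* (ENSMUSG00000030077), on chromosome 6 from 103510586 to 103750211 on the plus strand, was not detectable at this depth. *Nfasc*, which encodes the L1 family member neurofascin, had 713, 666 and 557 counts in control and 424 and 685 in exposed pools, which overlapped (log2 fold change -0.089, adjusted p = 0.933, edgeR's quasi-likelihood test). Of the 6 L1 and NCAM family genes, 5 were tested and 0 were called.

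Of the 6 genes that reached the count minimum in both conditions, 3 had exposed and control pools that did not overlap in CPM (*Kirrel2*, *Kirrel3* and *Ncam2*), in a table where this held for 40.0% of all genes tested. *Nrcam* did not overlap either but is left out of this count, since it was tested through the exposed pools alone. Summed over the 8 genes, expression averaged 2270 ± 232 TPM (SD, n = 3) without exposure and 3630 ± 284 TPM (SD, n = 2) with it. Without *Kirrel2* the sum was 1369 ± 175 TPM and 1188 ± 72.9 TPM, and the ranges of the conditions overlapped. The shares of *Cntn4* and *Ncam1* in the sum, 24.5% and 25.6% in control and 13.1% and 15.4% in exposed pools, were thus lower although their CPM overlapped between conditions.

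Genes of proteins that act with these molecules were listed next, 16 partners in all, among them ankyrins, kinases, scaffold proteins and the amyloid precursor family bound by contactins. All 16 were tested and 0 were called, with 7 positive log2 fold changes and a median of -0.035. Over the whole table, 5.27% of genes were called in either direction. Of the 5 enzymes that add polysialic acid to NCAM or shed adhesion molecules from the membrane, 4 were tested and 0 called (median 0.056).

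Sorting molecules of other families were set beside them. Of 14 listed, 13 were tested, 2 were called higher and 1 lower, beside 3.42% and 1.85% of all genes tested. The list was chosen with earlier results of these data known, and its counts were not tested against these shares. The median log2 fold change was 0.16. *Pcdh10*, which encodes a homophilic protocadherin of OSN axons, had 2642, 4293 and 3072 counts in control and 64738 and 56090 in exposed pools. Both exposed pools were far above every control pool (log2 fold change 4.32, SE 0.19, adjusted p = 0.000463, edgeR's quasi-likelihood test). *Sema7a*, a membrane-anchored semaphorin of axons, had 4009, 6690 and 8538 counts in control and 39708 and 32460 in exposed pools (log2 fold change 2.63, SE 0.29, adjusted p = 0.00918, edgeR's quasi-likelihood test). *Efna5*, which encodes the ligand ephrin-A5 of Eph receptors, had 4131, 4863 and 3900 counts in control and 1302 and 1245 in exposed pools. It was called lower, with a log2 fold change of -1.62 (SE 0.21, adjusted p = 0.0128, edgeR's quasi-likelihood test). *Epha5*, a receptor that binds ephrin-A5, was not called (0.31). The changes of *Pcdh10* and *Sema7a* on the log2 scale were larger than that of *Kirrel2*, and that of *Efna5* was larger in size than that of *Kirrel3*. These differences between genes were not tested.

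**Figure D5:**
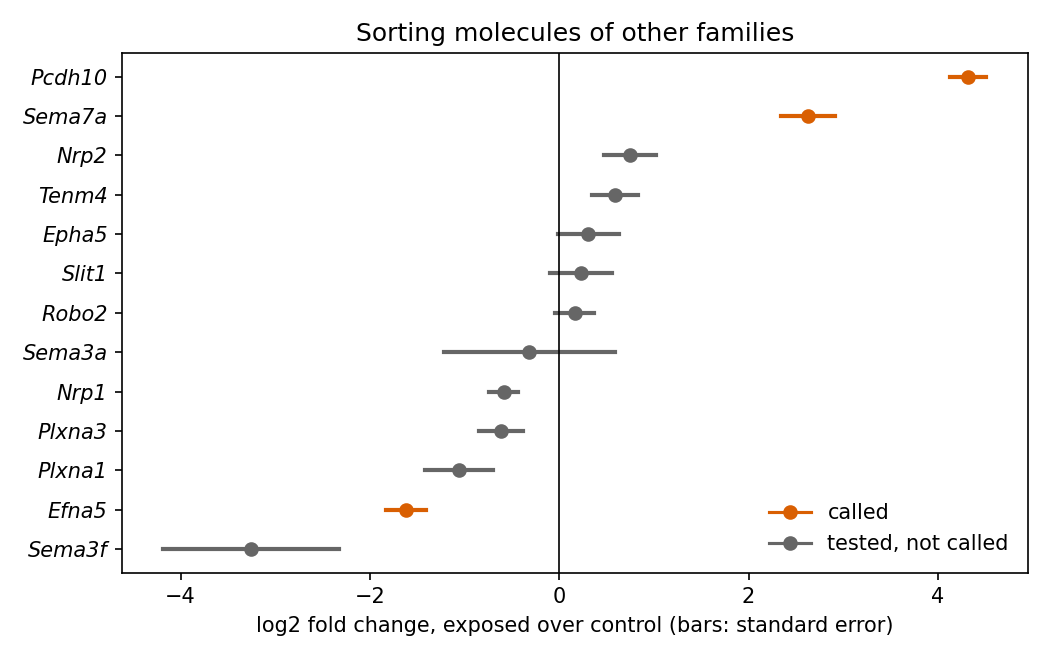
Log2 fold change of exposed over control pools for the 13 tested sorting molecules of other families, with bars for the standard error. *Pcdh10* (4.32) and *Sema7a* (2.63) were called higher and *Efna5* (-1.62) lower (orange), and the other 10 were not called (grey).

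The genes whose levels followed those of the Kirrel genes most closely across the 5 libraries were taken by Euclidean distance of log2 CPM after centring each gene on its mean. For *Kirrel2* they were *Fetub* (distance 0.206), *Tsc22d1* (0.212) and *Ccdc9* (0.246), beside a median of 1.96 over all genes tested. *Fetub*, which encodes a secreted protease inhibitor, was at 831, 815 and 1087 CPM in control and 2792 and 2377 CPM in exposed pools. *Tsc22d1*, a transcriptional regulator, was at 572, 510 and 589 CPM and at 1916 and 1695 CPM. For *Kirrel3* they were *Enox2* (0.114), ENSMUSG00000118411 (0.123) and *Erich3* (0.125), beside a median of 1.19. *Erich3*, alone of the latter called lower, was at 232, 236 and 237 CPM in control and 147 and 137 CPM in exposed pools. With 5 libraries in 2 conditions, such nearness rests mainly on the size of the change between conditions.

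Promoter windows of RefSeq on GRCm38.p6, from 250 bases before to 50 after the start, were found for 6 of the 8 genes, *Kirrel2* among them and *Kirrel3* and *Ncam1* not. Both strands were searched for TGACGTCA, found in 1.79% of 32851 such windows, and for its part TGACG (20.8%). The other motifs were TGANTCA of AP-1 (7.81%), the palindrome of EBF factors (0.904%), TAATTA of LIM homeodomain factors (5.29%) and GCGTGGGCG of EGR factors (0.612%). RefSeq starts need not be those of the GENCODE annotation, and the windows with matches, 1 of the 2 of *Cntn4* and that of *Chl1*, lie inside the GENCODE genes. The *Kirrel2* window held none of these letters. That window of *Cntn4* held 1 match to TGANTCA and 1 to TAATTA, and that of *Chl1* held 1 match to the EBF palindrome.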

How the data were processed

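RNA of sorted *Olfr151* neurons was reverse transcribed and amplified (12 PCR cycles) by SMARTer chemistry. The authors mapped the reads with STAR 2.7.0a to GRCm38 with the IRES-tau-GFP sequence added and counted them on exons with featureCounts 1.6.3. The deposited values are raw counts per gene with exon lengths, 1 table per pool, without normalization. Reads that map to several places, or to several genes, were not counted, and strand was not used. Without molecular identifiers, PCR copies are not independent, so limits from counts cover counting error only.

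Samples were grouped by their labels. Pools are separate sets of mice. Symbols were matched through GENCODE M21 for 55144 of 55411 genes. Conditions were compared with edgeR 4.0.16 in R 4.3.3 (TMM, glmQLFit with robust estimation, glmQLFTest), with condition as the only factor and Benjamini-Hochberg adjustment over the 10036 genes tested. The spike-in RNAs were left out of library sizes. The minimum of 142 counts marks the trough in the distribution of log2 counts. TPM were computed from counts and exon lengths in Python 3.11.15 with pandas 2.3.3. For the ratio of the Kirrel genes, 0.5 counts were added to each. The steps were tested on simulated data with 200 changed genes among 10036. Of the 2-fold changes 26% were called, of the 4-fold 62%, of the 8-fold 94% and of the 16-fold 100%, with 15 false calls. A gene that was not called may thus still differ.

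The alternatives were DESeq2 1.42.0, its size factors, spike-in scaling, other filters and thresholds, a test against the fold threshold, the pool number as a block and each library left out in turn. The genes, lists and tests were chosen with earlier results of these data known. Besides the 8 genes, the text names close homologs, the called genes of each list (at most 2 in each direction), a few cell markers and the 3 genes nearest to *Kirrel2* and to *Kirrel3*. *Epha5*, *Nphs1*, *Cntn2*, *Crmp1*, *Tubb3*, *Dpysl3*, *Gng8*, *Ptprc*, *Tyrobp* and *Lyz2* were named after their values were seen. One listed gene is not reported here.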

Additional observations from a re-analysis of the deposited data

How the results depend on the processing

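With 2 exposed pools, the spread within that condition rests on 1 difference per gene, and without either of them the lone exposed library is assumed to vary like the control pools. *Kirrel2* kept its direction in all 12 alternatives, with log2 fold changes of 1.36 to 1.79 and adjusted p from 2.07e-14 to 0.826, and *Kirrel3* kept its own, from -1.02 to -0.75. Neither was called under spike-in scaling, where the numbers of genes called over the whole table fell to 93 higher and 48 lower, 0 of the adhesion genes was called and the median change over the tested genes moved to -0.23 (log2). The spike-in RNAs took 0.249% to 0.631% of the counts. DESeq2's Wald test called 725 genes higher and 768 lower, filterByExpr 162 and 74, an adjusted p under 0.05 190 and 91, and the test against a log2 fold change of 0.5 146 and 55, with 1 of the adhesion genes (*Kirrel2*) left in the last. Both Kirrel calls held in DESeq2's test, with its size factors, without a filter, with filterByExpr and at an adjusted p under 0.05. Over the single libraries left out, 71 to 346 genes were called higher, 19 to 408 lower, and 1 to 2 of the adhesion genes. Without control pool 2 (156 and 55), exposed pool 1 (71 and 19) or exposed pool 3 (144 and 121) 1 remained, *Kirrel2*. Without control pool 3, 346 and 408 were called.

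Pool numbers are shared by both conditions, but the labels do not tie them to a day. Deviations of libraries with the same number from their condition means correlated at r = 0.029 for pool 1 and -0.069 for pool 3. With 2 exposed pools, their deviations mirror each other, so that these values cannot decide whether the pools are paired. Spike-in RNAs took 0.631% and 0.542% of the counts in control and exposed pool 1, and 0.332% and 0.306% in pool 3. Sustentacular markers summed to 274 and 366 CPM in pool 1 and to 125 and 144 CPM in pool 3. The share of *Olfr151* in receptor counts went the other way, 62.2% and 57.8% in pool 1 and 73.1% and 44.2% in pool 3. Whether pools with the same number share a batch was not tested. With the pool number as a block, 11 genes were called higher and 1 lower, and 0 of the adhesion genes. *Kirrel2* was then at 1.52 (adjusted p = 0.155) and *Kirrel3* at -0.83 (0.206), and the log2 ratio of the Kirrel genes differed by 2.35 within pools 1 and 3.

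Among genes that were not called, the sign of *Cntn4* turned with the block (0.037) and without control pool 2 (0.037). That of *Ncam1* turned under spike-in scaling (-0.13), and that of *L1cam* under spike-in scaling (-0.18), without control pool 1 (-0.096) and without exposed pool 3 (-0.12). Over the single libraries left out, *Cntn4* ranged from -0.10 to 0.037 and *L1cam* from -0.12 to 0.21. *Ncam2* kept a positive sign and was not called in any of the 12 alternatives. The same held for *Nrcam*, but it was tested through the exposed pools only, so that its sign is no support for a change. The difference of the Kirrel ratio was 2.40 with 1 count added in place of 0.5.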

Other observations

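Other immunoglobulin adhesion molecules of neurons, 22 genes that include the SynCAM, IgLON, nectin and sidekick groups, were read in the same libraries. Of these, 10 were tested and 0 were called, with a median log2 fold change of -0.056 and 4 positive values, and 3 genes had at most 3 counts in every library. The highest by counts, *Igsf8*, which encodes a tetraspanin partner, had 90193, 110402 and 105789 counts in control and 86189 and 66942 in exposed pools and was not called (log2 fold change -0.28, adjusted p = 0.309, edgeR's quasi-likelihood test). *Igsf8* was singled out after its values were seen.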
